A study of Mus musculus with 4 samples.

Results

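The RNA recovered with wild-type Lin28b (the WT immunoprecipitate, or WT IP) was set against that recovered with a mutant (the MU IP), over protein-coding genes selected on the measured levels of their inputs, which had to be alike, so that a difference between the IPs was not simply a difference in the starting RNA. The cells were mouse cancer-associated fibroblasts of the pancreas (15376CAFs, as the design text names them) that overexpressed Flag-tagged Lin28b. One group carried Lin28b-WT, the wild-type protein, and the other carried Lin28b-MU, a form described as deficient in RNA binding. Each construct gave 1 IP library, recovered with an anti-Flag antibody, and 1 library of input RNA (the WT input and the MU input), and all 4 were made with a stranded mRNA kit. The age, strain and tumour genotype of the source animals, the residues changed in the mutant and the number of clones are not given in the sources used here. There were no replicates, so every value describes single libraries, no difference has a replicate check, and no test between the constructs was made.

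Of 13478 genes listed in both deposited tables, 11260 were protein-coding and 9872 of those had both inputs at 1 FPKM or above (a level scaled to the length of the RNA and to the size of the library). The inputs of 7505 genes lay within 1.5-fold of each other, and these 7505 are the genes described here. They were chosen by these input levels, and the 2 classes of genes described below by the difference between the IPs, so both differences and classes are descriptions. The inputs of the other 2367 were not matched, with the WT input higher in 1100 and the MU input higher in 1267. Lin28b itself was among the unmatched genes, at 13.8 FPKM in the WT input and 30.0 in the MU input, so more of its transcript was present in the MU input. The let-7 target Hmga2, at 39.5 and 14.6 FPKM in the inputs, and the kinase gene Atm, at 6.15 and 9.95, were also unmatched.

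Lin28b is an RNA-binding protein of embryonic tissues that returns in many tumours. It carries a cold-shock domain and a pair of zinc knuckles, blocks the maturation of let-7 microRNAs, and also binds many mRNAs, among them those of ribosomal, mitochondrial and RNA-binding proteins. In RNA immunoprecipitation the RNA that stays with the tagged protein is compared with input RNA. A mutant that cannot bind RNA would show what the beads, the antibody and the tagged protein collect without that binding. The mutant here is described only as deficient in RNA binding, and any binding left to it was not tested.

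The inputs went partly against the label of the cells. Both tables held 6 of 10 epithelial markers. Epcam, Cldn3, Cldn4 and Cldn7 were not listed in both tables. The 6, led by Krt8, Krt18, Krt19 and Cdh1, summed to 2046 FPKM in the WT input and 1381 in the MU input. Some of these markers differed widely between the inputs, with Muc1 at 134 FPKM in the WT input and 6.77 in the MU input and Krt7 at 31.7 and 3.32. Of 15 fibroblast markers 6 were listed, summing to 820 and 708 FPKM, nearly all of it Vim, Fn1 and Sparc. The collagen gene Col1a1 stood at 0.722 and 0.404 FPKM, and Col1a2, Col3a1, Dcn, Lum, Pdgfrb, Thy1, Fap, Tagln and Postn were not listed in both tables. Endothelial and acinar markers were not listed (0 of 5 each), macrophage and leukocyte markers for 1 of 7 and pericyte markers for 2 of 4. The part that other cell types have in the differences below was not tested. Read depth is unknown for every library, so no counting interval could be given. The wild-type and mutant tables were normalised separately by the authors. Levels summed over each table came to 286720 FPKM in the WT IP, 207300 in the MU IP, 321240 in the WT input and 313360 in the MU input.

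The measure of each gene was log2((WT IP + 1)/(MU IP + 1)), called the difference below. Its median over the 7505 genes was 0.21 before centring (1.15-fold) and was subtracted from every gene. The centred difference ran from −2.29 to 5.19, with quartiles at −0.47 and 0.53. It was 1 or more, at least 2-fold higher in the WT IP, in 878 genes, which is 11.7% of those compared. It was −1 or less, at least 2-fold higher in the MU IP, in 497 genes, or 6.62%. The 2-fold limit is a size and not a test. Without centring the counts were 1210 and 266, and with the centre taken from genes with inputs at 10 or above they were 750 and 662, so the wild-type share of these genes was 63.9% as reported, 82.0% without centring and 53.1% with the other centre.

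The spread around the diagonal was wider on the wild-type side. Across genes, which are not independent replicates, the IPs correlated at 0.866 (Spearman, 7505 genes), against 0.980 for the inputs. The WT IP correlated with its own input at 0.875 and the MU IP with its own at 0.779.

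**Figure D1:**
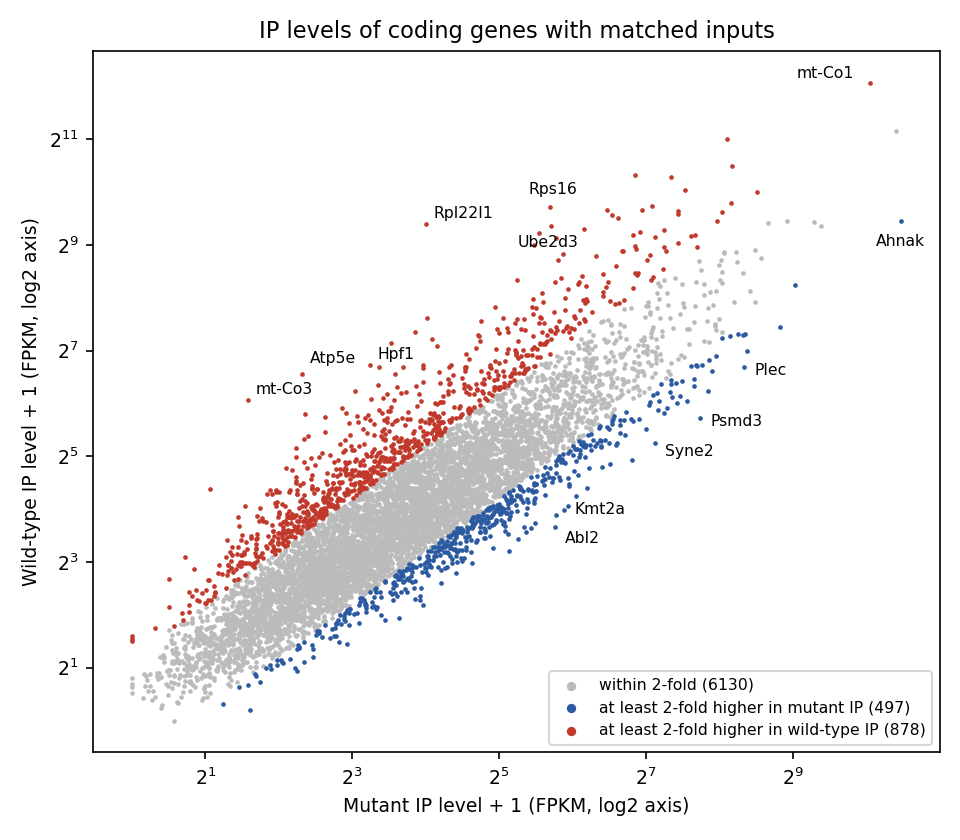
Level of each of the 7505 genes in the MU IP (x axis) and in the WT IP (y axis), as FPKM + 1 on log2 axes. Red points are the 878 genes at least 2-fold higher in the WT IP and blue points the 497 at least 2-fold higher in the MU IP, after centring. Rpl22l1, mt-Co3 and Atp5e lie farthest to the upper left and Abl2 and Kmt2a on the lower right edge.

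The limit cut through a continuous distribution. On the wild-type side Harbi1 (1.0013), Sdhaf2 (1.0010) and Gsta2 (1.0004) lay just inside it, and Rpa2 (0.9996), Dda1 (0.9993) and Gsta1 (0.9982) just outside. On the mutant side Prkdc (−1.0004), Knl1 (−1.0016) and Dennd4a (−1.0025) lay just inside, and Rbfa (−0.9986), Tonsl (−0.9985) and Jade3 (−0.9983) just outside.

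Rpl22l1, which encodes a paralogue of a ribosomal protein of the large subunit, had the largest difference of all. It stood at 673 FPKM in the WT IP, 15 in the MU IP, 65.7 in the WT input and 61.7 in the MU input, a difference of 5.19. The WT IP was thus far above its input while the MU IP was below its own, at log2 ratios of 3.34 and −1.97 (each IP over its own input, with 1 added to both levels). The next largest, mt-Co3, which encodes a mitochondrial subunit of cytochrome c oxidase, stood at 65.6 FPKM in the WT IP and 1.99 in the MU IP, with inputs of 28.2 and 26.6 and a difference of 4.27. Atp5e, a small subunit of ATP synthase, stood at 93.5 and 3.98 FPKM in the IPs and at 102 and 93.4 in the inputs, a difference of 4.04. For Atp5e the WT IP was level with its input, and the MU IP alone stood apart from the other 3 libraries.

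Of the 15 genes with the largest differences (predicted genes and genes under 5 FPKM in both IPs left out), 6 encode ribosomal proteins besides Rpl22l1. Rps16 stood at 845 and 50.5 FPKM in the WT and MU IPs, with inputs of 256 and 210. Rplp0, of the ribosomal stalk, stood at 1285 and 115 FPKM, with inputs of 917 and 753. Rpl36, Rpl36a, Rpl38 and Rpl12 had differences of 3.48, 3.45, 3.30 and 3.15. In these the WT IP lay near its input or above it, and the MU IP lay far below.

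The other genes at the top had varied roles. Hpf1, whose product directs ADP-ribosylation onto serine at DNA breaks, stood at 105 FPKM in the WT IP, 8.44 in the MU IP, 22.6 in the WT input and 23.7 in the MU input. Sec11c, a subunit of the signal peptidase, stood at 141 and 10.5 FPKM in the IPs and 45.05 and 34.4 in the inputs. Snrpe, a core Sm protein of the spliceosome, stood at 195 and 15.2 FPKM in the IPs and 86.7 and 118 in the inputs. In Hpf1, Sec11c and Snrpe the WT IP exceeded both inputs, and the MU IP was the lowest of the 4 libraries. Ndufb8 of respiratory complex I, Cops9 of the COP9 signalosome and Nhp2 of the H/ACA ribonucleoproteins followed, at 3.28, 3.22 and 3.11.

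**Figure D2:**
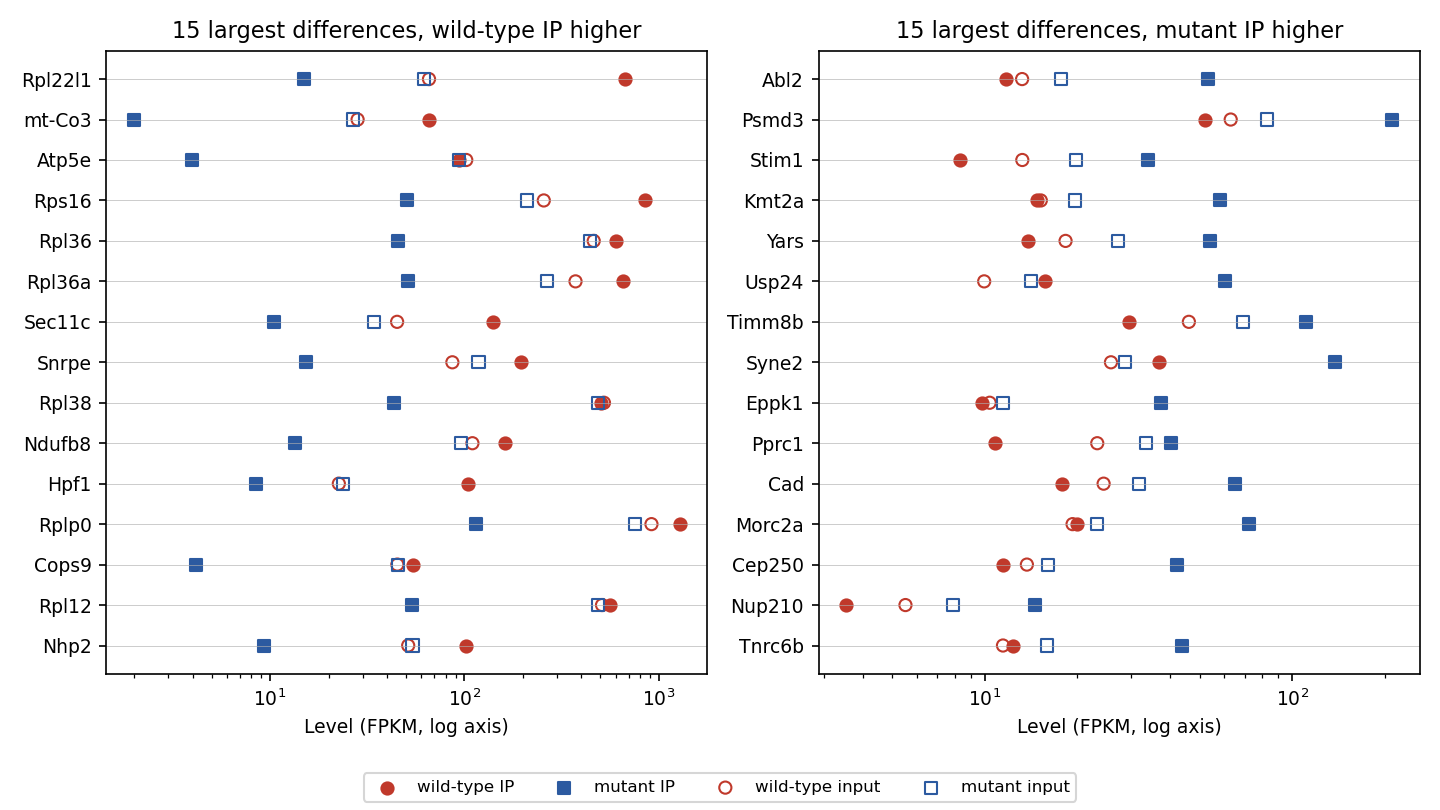
Levels (FPKM, log axis) in all 4 libraries of the 15 genes with the largest difference toward the WT IP (left) and of the 15 with the largest toward the MU IP (right), 1 library per symbol. On the left the MU IP lies below both inputs in every gene shown. On the right the MU IP lies above both inputs in every gene shown, and the WT IP lies near or below its input in most.

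In most of the 878 genes a low MU IP, rather than a high WT IP, went with the gap. Among the 878 genes, the median level was 31.1 FPKM in the WT IP and 31.0 in the WT input, but 8.83 in the MU IP against 29.6 in the MU input. The WT IP was at least 2-fold above its input in 119 of the 878, against 354 of all 7505 genes (4.72%). The MU IP was at least 2-fold below its input in 647 of the 878, against 2023 of all genes (27.0%), and at least 2-fold above it in 0. The most frequent pattern, in 487 genes, was a WT IP within 2-fold of its input and a MU IP at least 2-fold below. In 133 genes both IPs were at least 2-fold below their inputs (for the WT IP this held in 963 of all genes, 12.8%), and in 27 genes the WT IP was above and the MU IP below. These counts use the same IP levels as the difference and describe it rather than support it.

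Some genes that the WT IP recovered above its input are described next. Vbp1 was chosen by name and list, Ube2d3 by list, Naf1 and Ap1s2 by the strength of their wild-type peaks, and Sting1 by list and peaks. Peaks and the differences used within lists come from the same WT IP. High WT IP levels in genes chosen that way therefore follow in part from the choice. Vbp1, a subunit of the prefoldin chaperone, stood at 155 FPKM in the WT IP, 25.3 in the MU IP, 14.5 in the WT input and 18.3 in the MU input. Here both IPs were above their inputs, the WT IP by a log2 ratio of 3.33 and the MU IP by 0.45. Naf1, an assembly factor of H/ACA ribonucleoproteins, stood at 65.5 and 10.9 FPKM in the IPs and 10.1 and 14.0 in the inputs. Ube2d3, a ubiquitin-conjugating enzyme, stood at 444 and 79.1 FPKM in the IPs and 79.2 and 84.0 in the inputs. For Naf1 and Ube2d3 the WT IP stood apart from the other 3 libraries, which were close to each other. Ap1s2, a small subunit of the AP-1 clathrin adaptor, stood at 19.8 and 4.49 FPKM in the IPs and 3.75 and 4.43 in the inputs, and Sting1, the adaptor of cytosolic DNA sensing, at 13.2 and 2.41 in the IPs and 4.93 and 6.70 in the inputs.

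On the mutant side the picture differed. The 497 genes had a median of 25.1 FPKM in the MU IP and 14.4 in its input, and 11.5 in the WT IP and 12.8 in its input. The MU IP was at least 2-fold above its input in 152 of them, against 335 of all genes (4.46%), and both IPs lay within 2-fold of their inputs in 291. Abl2, a non-receptor tyrosine kinase, had the largest difference, −2.29, at 11.7 FPKM in the WT IP, 53.1 in the MU IP, 13.2 in the WT input and 17.6 in the MU input. Psmd3, a subunit of the proteasome lid, stood at 52.1 and 212 FPKM in the IPs and 63.1 and 82.6 in the inputs. Kmt2a, a histone H3 lysine methyltransferase, stood at 14.8 and 58.1 FPKM in the IPs and 15.2 and 19.7 in the inputs. In Abl2, Psmd3 and Kmt2a the MU IP was the one library far from the others.

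Syne2, which encodes the giant nuclear envelope protein nesprin-2, stood at 37.0 FPKM in the WT IP, 138 in the MU IP, 25.7 in the WT input and 28.6 in the MU input. Usp24, a deubiquitinase, stood at 15.7 and 60.5 FPKM in the IPs and 9.95 and 14.1 in the inputs. In these 2 genes both IPs lay above their inputs, the MU IP by more. The 15 largest differences of this side also took in Stim1, the calcium sensor of the endoplasmic reticulum, Yars, the tyrosyl-tRNA synthetase, Cad, an enzyme of pyrimidine synthesis, Tnrc6b, a partner of Argonaute, Nup210 of the nuclear pore, Cep250 of the centrosome, and Eppk1, Pprc1 and Morc2a. Timm8b, a chaperone of the mitochondrial intermembrane space, was the exception by size, with a span of 1.41 kb, and stood at 29.4 and 111 FPKM in the IPs and 46.1 and 69.1 in the inputs.

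**Figure D3:**
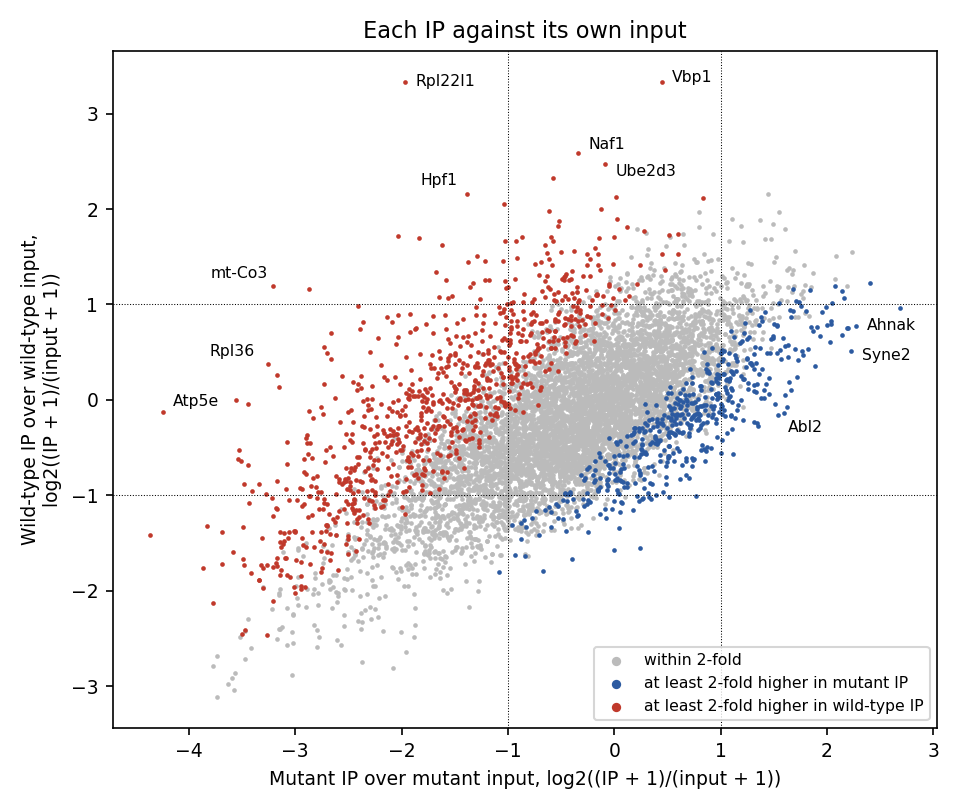
Each IP against its own input for the 7505 genes, as log2((IP + 1)/(input + 1)), with the mutant on the x axis and the wild type on the y axis and dotted lines at 2-fold. Red and blue mark the genes at least 2-fold higher in the WT IP and the MU IP. Of the red points, 647 lie left of the line at −1 and 119 above the line at 1, and of the blue points 152 lie right of the line at 1.

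The inputs within the 1.5-fold window still leaned with the difference. The WT input was the higher one in 64.9% of the 878 genes, in 21.5% of the 497 and in 46.7% of all 7505. When each IP was first divided by its own input, 826 and 428 genes passed 2-fold on the wild-type and mutant sides, among them 676 of the 878 and 304 of the 497.

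Genes of the ribosome were the largest group on the wild-type side. Of 82 kept genes for cytosolic ribosomal proteins 60 were at least 2-fold higher in the WT IP, against 11.7% of all genes, and 2 in the MU IP, against 6.62%, with a median difference of 1.53. The median of the 82 was 211 FPKM in the WT IP, 61.4 in the MU IP, 434 in the WT input and 401 in the MU input, so that as a group these mRNAs were below input in both IPs. Of the 60, the MU IP was at least 2-fold below its input in 59, and the WT IP was at least 2-fold above in 3, within 2-fold in 34 and at least 2-fold below in 23. Rpl35a and Rpl9, picked out after their values were seen, ran the other way. Rpl35a stood at 126 FPKM in the WT IP, 329 in the MU IP, 188 in the WT input and 152 in the MU input, and Rpl9 at 301, 522, 493 and 489. Of the 82 genes, 43 have a named processed copy in the tables, and reads of near-identical copies may be shared among them, so single ribosomal protein values are uncertain.

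Ribosomal protein mRNAs are known for a terminal oligopyrimidine start, a C followed by a run of C and T at the first bases of the transcript. RefSeq (GRCm38.p6) start windows, 10 bases before the start and 20 from it, are shown because these mRNAs made up the largest group. Capitals mark a run of at least 5 C or T that opens with a C between positions −2 and 3 of the start, searched on the sense strand, and windows without capitals had no such run.
Rpl38: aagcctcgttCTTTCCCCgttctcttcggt
Rpl12: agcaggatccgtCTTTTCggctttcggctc
Rpl35a: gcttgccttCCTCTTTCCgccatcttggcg
Rpl22l1: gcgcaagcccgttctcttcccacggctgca
Rps16: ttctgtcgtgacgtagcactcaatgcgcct
Rplp0: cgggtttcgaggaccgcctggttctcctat
Kmt2a: tcgctgcttcacttacggggcgaacatggc
Syne2: tgtagcctccagtccagagcggagcgcgct
The windows lie at chr11:114668570-114668599 for Rpl38, chr2:32961702-32961731 for Rpl12, chr16:33056472-33056501 for Rpl35a (one of its starts in the table), chr3:28805498-28805527 for Rpl22l1, chr7:28350679-28350708 for Rps16 and chr5:115559457-115559486 for Rplp0, all on the plus strand. Those of Kmt2a and Syne2 lie at chr9:44881270-44881299 on the minus strand and chr12:75818308-75818337 on the plus strand.

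Windows of both kinds were found among ribosomal protein genes with large differences. Rpl38 and Rpl12 had the run and Rps16, Rplp0 and Rpl22l1 did not, and Rpl35a had the run with the opposite sign. Of the 60 ribosomal protein genes with a RefSeq window, 24 (40.0%) had the run, against 8.96% of all 32851 windows of the RefSeq table and 12.3% of the 6184 kept genes with a window. The median difference was 1.52 in the 24 with the run and 1.58 in the 36 without it, and 18 and 27 of them, 75% each, were at least 2-fold higher in the WT IP. Over all genes the run was present in 14.9% of the genes higher in the WT IP, 12.02% of those within 2-fold and 11.1% of those higher in the MU IP. Without ribosomal protein genes the share on the wild-type side was 13.2%. The run is a match of letters at an annotated start, and the starts used in these cells were not measured. Runs farther from the annotated start were not counted, such as 8 bases from position 4 in Rpl22l1 and 11 from position 9 in Rps12. The split therefore cannot separate mRNAs with and without an oligopyrimidine start, and whether the difference follows that start was not tested.

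The mitochondrially encoded mRNAs, transcribed from the circular genome inside the organelle, stood together on the wild-type side. All 11 that were kept were at least 2-fold higher in the WT IP, with a median difference of 2.31, and the MU IP was at least 2-fold below its input in all 11. The 3 with the largest differences were mt-Co3, mt-Co2, at 59.2 and 6.29 FPKM in the IPs and 85.7 and 83.0 in the inputs, and mt-Atp6, at 39.0 and 4.10 in the IPs and 22.9 and 25.8 in the inputs. The inputs of these 3 lay far below the medians of the 11, which were 444 FPKM in the WT input and 469 in the MU input. The cause of these lower levels was not tested. The most abundant, mt-Co1 (named after its values were seen), stood at 4294 FPKM in the WT IP, 1057 in the MU IP, 2189 in the WT input and 2610.4 in the MU input. The WT IP was within 2-fold of its input in 10 of the 11. These RNAs lie inside mitochondria, and the list was added after earlier results were known.

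Nuclear genes of oxidative phosphorylation leaned to the same side, which held 11.7% of all genes, against 6.62% on the mutant side. Of 85 kept, 44 were at least 2-fold higher in the WT IP and 0 in the MU IP, with a median of 1.01, and in 0 of the 44 was the WT IP at least 2-fold above its input. The MU IP was at least 2-fold below input in 43 of the 44. Besides Atp5e and Ndufb8, Atp5md, of the ATP synthase, stood at 102 and 11.9 FPKM in the IPs and 165 and 139 in the inputs. Of 62 mitochondrial ribosomal protein genes 22 were higher in the WT IP and 1 in the MU IP, with a median of 0.68. Mrpl52 stood at 26.4 and 4.21 FPKM in the IPs and 62.9 and 47.3 in the inputs, so it was below input in both IPs.

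Several other groups leaned the same way, where 11.7% of all genes were higher in the WT IP and 6.62% in the MU IP. Sm and LSm proteins form the rings that hold spliceosomal and decay RNAs. Their list also took in Snrpa1, a spliceosomal protein that is not part of these rings. Of 21 kept genes of that list, 13 were higher in the WT IP and 1 in the MU IP, with a median of 1.18. Snrpa1 stood at 81.2 and 19.03 FPKM in the IPs and 33.5 and 45.4 in the inputs. Lsm6 stood at 32.1 and 8.10 FPKM in the IPs and 14.3 and 12.5 in the inputs. Of 39 genes of the endoplasmic reticulum translocon and its chaperones 12 were higher in the WT IP and 2 in the MU IP. Sec61g, the small subunit of the translocation channel, stood at 55.1 and 6.55 FPKM in the IPs and 63.1 and 52.8 in the inputs. Of 51 translation factors 12 were higher in the WT IP and 0 in the MU IP, led by Mcts1, a reinitiation factor, and the eIF3 subunits Eif3e and Eif3f. Eif3e stood at 314 and 67.3 FPKM in the IPs and 127 and 93.1 in the inputs, with the WT IP above both inputs.

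The ubiquitin-conjugating enzymes, which pass ubiquitin to substrates, also leaned to the wild-type side. Over all genes 11.7% were higher in the WT IP and 6.62% in the MU IP. Of 29 kept, 11 were higher in the WT IP and 0 in the MU IP, with a median of 0.83, and their median span was 30.5 kb against 24.1 kb for all genes. In 5 of the 11 the WT IP was at least 2-fold above its input. The same held in 4 of the 12 genes of the endoplasmic reticulum list. It held in 3 each of the 13 genes of the Sm and LSm list and the 12 translation factors. Ube2j1, an enzyme of the endoplasmic reticulum membrane, stood at 35.7 and 7.56 FPKM in the IPs and 17.1 and 13.7 in the inputs. Ube2d1 stood at 21.6 and 3.72 FPKM in the IPs and 16.7 and 13.0 in the inputs, with the MU IP lowest. Of 33 Rab GTPases, the switches of membrane traffic, 10 were higher in the WT IP and 1 in the MU IP. Of 33 proteasome subunits 8 were higher in the WT IP and 3 in the MU IP, so that Psma3, at 104 and 19.4 FPKM in the IPs and 37.7 and 51.7 in the inputs, and Psmd3 moved apart within a single complex.

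The mRNAs reported elsewhere as bound by LIN28 proteins had shares past 2-fold that were not far from those of all genes. Of 29 kept, 5 (17.2%) were higher in the WT IP, against 11.7% of all genes. In the MU IP 1 (3.45%) was higher, against 6.62%. The median was 0.32, with 16 of the 29 above 0, and it was 0.06 when genes were compared within classes of span. Ndufb8 led the list, and the complex I gene Ndufb3 stood at 57.0 and 10.4 FPKM in the IPs and 40.5 and 39.4 in the inputs. Taf15, an RNA-binding protein of the FET family, stood at 120 and 41.0 FPKM in the IPs and 49.1 and 58.0 in the inputs, with the WT IP the highest of the 4. Of 86 genes for hnRNP, SR and FET RNA-binding proteins 11 (12.8%) were higher in the WT IP, a share near the 11.7% of all genes, and 2 in the MU IP. Of 24 mRNAs known as let-7 targets 2, the kinase genes Cdk6 and Map4k4, were at least 2-fold higher in the MU IP, at differences of −1.27 and −1.08. These were 8.33% of the list, near the 6.62% of all genes, and 1 (4.17%) was higher in the WT IP. The median of that list was −0.12 and turned to 0.09 without centring.

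Genes of very large proteins formed the most one-sided list on the mutant side. Of 31 giant cytoskeletal and scaffold proteins 24 were at least 2-fold higher in the MU IP, against 6.62% of all genes, and 0 in the WT IP. All 31 had a difference below 0, with a median of −1.22. In 19 of the 24 the MU IP was at least 2-fold above its input. The median log2 ratio of IP over input was 1.595 in the mutant and 0.32 in the wild type, so that the WT IP lay on the same side of its input as the MU IP but nearer to it. Plec, a linker of intermediate filaments, stood at 102 FPKM in the WT IP, 323 in the MU IP, 112 in the WT input and 106 in the MU input. Ahnak, a giant scaffold protein under the plasma membrane, was the most abundant of the list, at 701 and 1420 FPKM in the IPs and 409 and 292 in the inputs. Both its IPs were above their inputs. Dync1h1, the heavy chain of cytoplasmic dynein, from the list of motors, stood at 74.7 and 229 FPKM in the IPs and 63.3 and 68.8 in the inputs.

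Large nuclear proteins followed. Of 48 genes of histone methylation and chromatin remodelling 11 (22.9%) were higher in the MU IP, against 6.62% of all genes. In the WT IP 0 were higher, against 11.7%, and the median was −0.74. Besides Kmt2a, its relative Kmt2d stood at 21.2 and 61.0 FPKM in the IPs and 27.4 and 28.7 in the inputs. Of 25 PI3K-like kinases and DNA damage genes 9 (36%) were higher in the MU IP and 1 (4%), Hpf1, in the WT IP. Smg1, the kinase of nonsense-mediated decay, stood at 44.5 and 126.5 FPKM in the IPs and 20.6 and 27.6 in the inputs, and Atr, the kinase that senses stalled replication, at 11.2 and 26.9 in the IPs and 4.33 and 5.63 in the inputs. In Smg1 and Atr both IPs were more than 2-fold above their inputs.

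Negative medians were also found in 6 further lists. Of 40 deubiquitinases of the USP and OTU families 5 were higher in the MU IP, of 21 nuclear pore genes 4, of 22 genes of PI3K, AKT, mTOR and IGF signalling 4, of 8 aminoacyl-tRNA synthetases 3, of 36 DEAD and DEAH box helicases 4 and of 13 matrix genes 3. In the nuclear pore, PI3K and helicase lists 1 gene each (4.76%, 4.55% and 2.78%) was higher in the WT IP, against 11.7% of all genes. In the others it was 0. The medians of the 6 lists lay between −0.38 and −0.60, on both sides of the −0.50 of the PI3K-like kinases and DNA damage genes. When genes were compared within classes of span, the 6 medians ran from −0.07, in matrix genes, to −0.60, in aminoacyl-tRNA synthetases. The basement membrane proteoglycan gene Agrn, for example, stood at 26.9 and 83.4 FPKM in the IPs and 43.9 and 53.2 in the inputs. The kinesins, dyneins and myosins had a median of −0.40. Of 43 kept, 6 (14.0%) were higher in the MU IP, against 6.62% of all genes, and 4 (9.30%), among them the light chains Myl12a and Myl12b, in the WT IP, against 11.7%.

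The remaining lists had medians from −0.24, in mRNA decay, to 0.43, in prefoldin and chaperonin genes. Lysosomal genes had 0 of 33 past 2-fold on either side and a median of 0.05. Over all genes 11.7% were past 2-fold on the wild-type side and 6.62% on the mutant side. The cell cycle list (39 kept) had 4 (10.3%) on the wild-type side, Pcna among them, and 3 (7.69%) on the mutant side. The zinc finger proteins named Zfp (211 kept) had 5 (2.37%) and 16 (7.58%), so their mutant share was near that of all genes. The mRNA decay genes (39 kept) had 3 (7.69%) and 4 (10.3%). Glycolysis (16 kept) had 2 (12.5%) and 0, including Ldha, at 1023 and 362 FPKM in the IPs and 498 and 532 in the inputs. The carriers of the SLC25 family (25 kept, median 0.24) had 5 (20%) and 1 (4%), and other solute carriers (84 kept) 5 (5.95%) and 1 (1.19%). Integrins and adhesion (19 kept) had 1 (5.26%) and 2 (10.5%), and prefoldin and chaperonin genes (13 kept) 1 and 1 (7.69% each). The medians of the cell cycle, zinc finger and other solute carrier lists were negative with centring and above 0 without it, and those of the lysosomal and integrin lists turned negative with the centre from genes with inputs at 10 or above. Of the interferon-stimulated genes 1, Sting1, had matched inputs. The reference mRNAs Actb and Gapdh had differences of 0.55 and 0.48, and both were lower in each IP than in its input. With span class medians subtracted these differences were 0.0076 and −0.0622, so that neither kept its distance from the median gene.

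**Figure D4:**
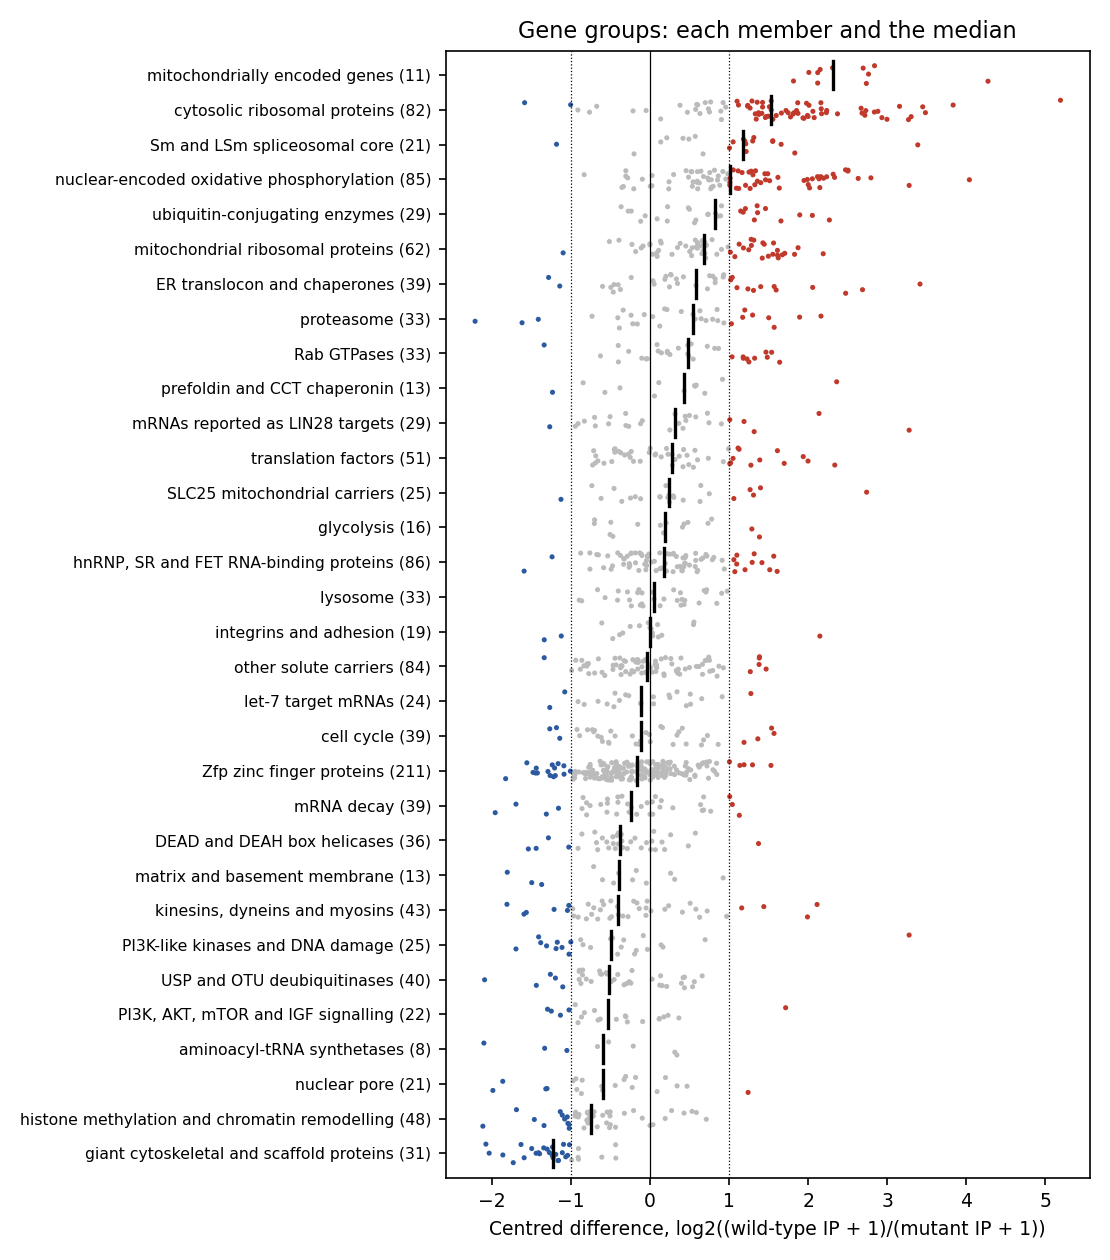
Centred difference of every kept gene in 32 lists (number of genes in brackets), sorted by the list's median, which is the black bar. Red and blue points pass 2-fold toward the wild-type and the MU IP, marked by the dotted lines. The mitochondrially encoded genes are all beyond the right line, and all 31 giant cytoskeletal and scaffold genes lie left of 0.

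The difference followed the length of the gene. Span is the distance between the ends of a gene in the deposited tables, introns included, and mRNA length was not used here. Over 10 equal classes the median difference went from 0.54 in spans up to 4.89 kb to −0.39 in spans from 107.71 kb. In the shortest class 235 of 751 genes (31.3%) were higher in the WT IP and 14 in the MU IP, and in the longest class 18 (2.40%) and 137 (18.2%). Across genes the Spearman correlation of the difference with span was −0.338. That of IP over input with span was 0.591 in the mutant and 0.415 in the wild type, so that in both IPs short genes lay lower relative to input than long ones. The median span was 11.0 kb in the 878 genes and 56.5 kb in the 497.

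**Figure D5:**
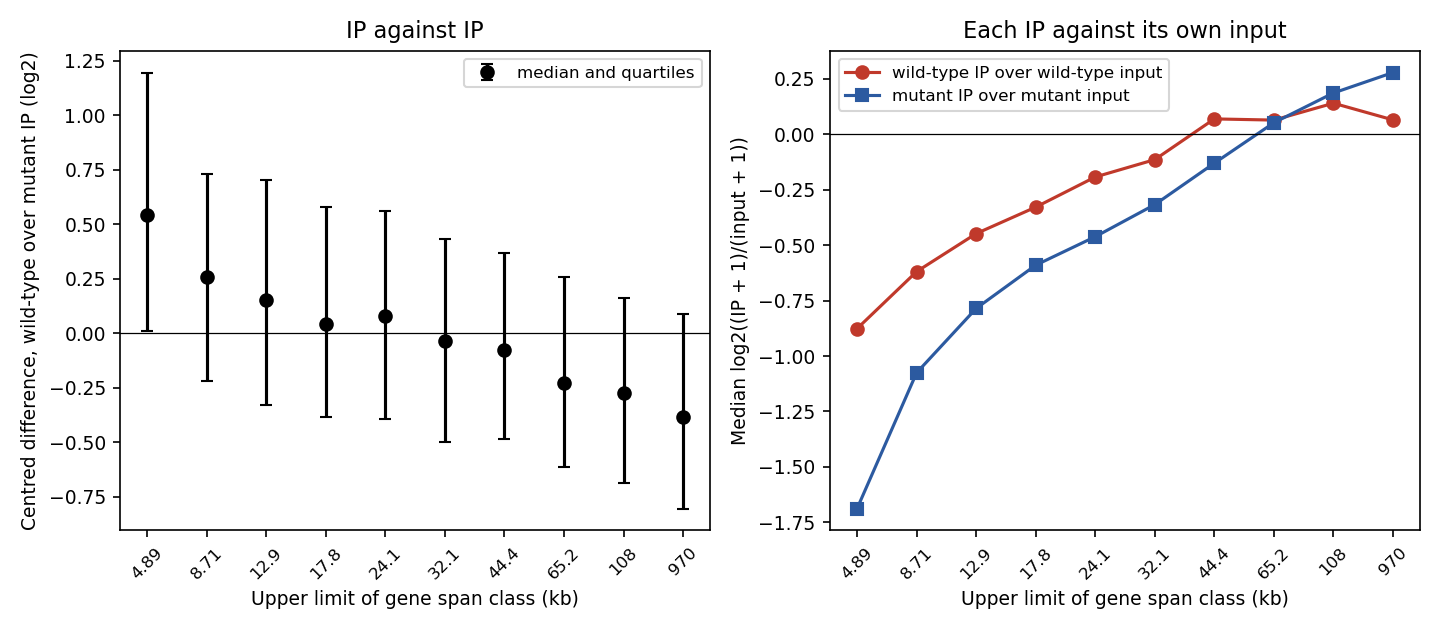
Left, median and quartiles of the centred difference (log2) in 10 equal classes of gene span, labelled by their upper limit in kb. Right, median log2((IP + 1)/(input + 1)) of each IP in the same classes. The MU IP goes from −1.69 to 0.28 and the WT IP from −0.88 to 0.06 between the shortest and the longest class.

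The counts were lower when genes were compared within classes of span. With the class median subtracted, 776 and 420 genes passed 2-fold, among them 664 of the 878 and 309 of the 497. The median of the cytosolic ribosomal proteins was then 1.17, that of the mitochondrially encoded genes 1.77 and that of the giant proteins −0.89, whereas that of the mRNAs reported as LIN28 targets was 0.06. That of the ubiquitin-conjugating enzymes was 0.85. The oxidative phosphorylation median went from 1.01 to 0.73 and that of the Sm and LSm list from 1.18 to 0.77, so neither stayed at 2-fold. Mitochondrial ribosomal proteins went from 0.68 to 0.40 and proteasome subunits from 0.54 to 0.31. Histone methylation and chromatin remodelling genes went from −0.74 to −0.47, whereas Rab GTPases went from 0.48 to 0.58. The genes in which the WT IP was at least 2-fold above input had a median span of 21.2 kb, against 9.67 kb where the WT IP was within 2-fold and the MU IP below and 3.78 kb where both were below. The difference also followed the level of the input, with a median of 0.58 in the highest of 10 equal classes of input level, where 265 genes (35.3%) were higher in the WT IP. The part of span and abundance in the difference was not tested beyond these values.

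The authors' peaks, listed once per IP, come from the same libraries as the levels and are no separate support for them. A peak was counted for a gene whose span held its summit on the same strand. Of all 7505 genes 2541 (33.9%) held a peak of the wild-type list and 1912 (25.5%) one of the mutant list. Of the 878 genes 385 held a wild-type peak and 25 a mutant peak, and of the 497 genes 167 and 362. The remaining 493 of the 878 held no peak of either list, among them Atp5e, Rpl38 and mt-Co3. Of the 82 ribosomal protein genes 17 held a wild-type peak. The giant proteins held a mutant peak in 31 of 31 genes and a wild-type peak in 24.

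The genes with the strongest wild-type peaks and no mutant peak were all named above, because this rule was one of those used to name genes. Naf1 and Ap1s2 were named by this rule alone, and Sting1 by this rule and its list. Hpf1 and Rpl22l1 were also named for their large differences. Each fold is the authors' own value at the summit. Hpf1 had the highest, 48.6-fold at chr8:60899917-60900225 (GRCm38), in the middle of the gene. Sting1 followed at 42.5-fold, Ap1s2 at 33.7-fold, Rpl22l1 at 29.1-fold (chr3:28806371-28806817) and Naf1 at 26.4-fold (chr8:66879418-66879677). Ube2d3 had 7 wild-type peaks, the strongest 29.3-fold at chr3:135462792-135463037, and 1 mutant peak of 5.26-fold. Vbp1 had 5 wild-type and 2 mutant peaks, of up to 18.1-fold and 3.77-fold.

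The strongest mutant peaks in genes without a wild-type peak were in Hsph1, a co-chaperone of HSP70 (15.9-fold), Cntrl, a centriole protein (14.9-fold), Fkbp5, a co-chaperone of steroid receptors (13.3-fold), Thada (12.9-fold) and Kirrel, a cell adhesion protein (12.6-fold). Of these, Fkbp5 and Kirrel had differences of −0.57 and −0.91, short of 2-fold. Of the 497 genes 135 (27.2%) held no peak of either list, and Timm8b held 1 mutant peak and Stim1 and Pprc1 3 each. The counts were high in some long genes, with 106 mutant and 23 wild-type peaks in Syne2, 65 and 22 in Prkdc, the DNA-dependent protein kinase, and 53 and 4 in Usp24. In Atr the strongest peak of both lists lay at the same place, at chr9:95873929-95874789 in the mutant list (28.3-fold) and chr9:95873975-95874441 in the wild-type list (16.6-fold).

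Some of the strongest mutant peaks sat at the start of the gene. In Abl2 the top mutant peak lay at chr1:156558801-156559001, in Kmt2a at chr9:44881016-44881406, in Hsph1 at chr5:149636081-149636350 and in Kirrel at chr3:87174519-87174746. This was seen first in these genes and then counted. Of 12354 mutant peaks in the 7505 genes 176 (1.42%) had their summit within 500 bases of the annotated start, and of 9241 wild-type peaks 85 (0.920%). Genes with such a peak numbered 37 in both lists, 138 in the mutant list alone and 47 in the wild-type list alone. Within 500 bases of the annotated end lay 3.81% of the mutant and 7.35% of the wild-type peaks. Among the 878 genes 2.51% of 1034 wild-type peaks and 0 of 43 mutant peaks were near the start, and among the 497 genes 1.13% of 4940 mutant peaks and 0.268% of 1120 wild-type peaks. The strongest peak of a gene was near the start in 63 of 1912 genes (3.30%) in the mutant list and 44 of 2541 (1.73%) in the wild-type list. For wild-type peaks of the 878 genes it was 15 of 385 (3.90%). For mutant peaks of the 497 genes it was 15 of 362 (4.14%), a similar share. Sting1 had its strongest wild-type peak at the start, at chr18:35740326-35740666.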

How the data were processed

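Each of the 4 libraries (wild-type IP, wild-type input, mutant IP, mutant input) was the only one of its group. The submitters' processing notes name bedtools, MACS2 2.2.7.1, HISAT2 2.1.0 and HOMER 4.11.1 and the builds GRCm38 and mm10, without saying what each was used for. The authors deposited 1 gene table per construct. The unit is not in the file headers, and the deposited levels were read as FPKM from their values. Per the file headers each gene also has a q-value, a p-value and a log2 ratio (IP over input). The authors' log2 ratio equals log2 of (IP + 0.01) over (input + 0.01) to within 1.57e-09, and these 3 columns were not used further. The peak lists, deposited by the authors in narrowPeak form, number 1 per IP and give a strand. Each peak has the authors' score (not used), fold enrichment at the summit, −log10 p-value and −log10 q-value (not used in the text) and the summit's distance from the start.

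Tables were joined by gene identifier, with the class and symbol of the mutant table. Input minimum (1 FPKM), input match (1.5-fold), pseudocount (1), centring and 2-fold limit are given in the report, and the comparison has no test because each group has 1 library. A peak went to the gene whose span held its summit on the same strand, preferring named to predicted genes and, among those, the smallest span. Genes and lists were chosen with earlier results of these data known. Named genes were the 15 largest differences on each side with an IP level of 5 FPKM or above, the 3 just inside and outside each limit, up to 3 per list, the 5 strongest peaks of each list without a peak of the other, and a few chosen by name. Of 32 lists, 31 had at least 5 kept genes and a median, and the mitochondrially encoded genes were a list added later. Promoters of RefSeq (GRCm38.p6) were matched by symbol for 6184 of the 7505 genes. The alternatives were other pseudocounts, input matches, input minimums and centrings, IP over input ratios, span classes and, added after the data were seen, leaving out spans under 5 kb. The scripts were tested on simulated data and used Python 3.11.15, numpy 2.4.6 and pandas 2.3.3. Exons were not assigned and peak sequences were not used here. One result is not reported here.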

Additional observations from a re-analysis of the deposited data

How the results depend on the processing

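Against 878 genes on the wild-type side and 497 on the mutant side, a pseudocount of 5 gave 564 and 208, inputs within 1.2-fold gave 485 and 237 of 4206 genes, and unmatched inputs gave 1336 and 923 of 9872 genes. The last 2 change the number of genes compared. Without centring 266 genes remained on the mutant side. The other alternatives left both counts within 1.5 times, and leaving out spans under 5 kb, chosen after the data were seen, gave 701 and 422. In no alternative did a gene change sides beyond 2-fold. Of the 32 list medians 17 were above 0, and 15 to 21 under the alternatives. No value of a named gene or list that passed 2-fold changed sign. Depth is unknown, so precision of low levels could not be given, and 75 genes had both IPs under 1 FPKM. No paired analysis was possible because each group has 1 library.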
